A study of Homo sapiens with 6 samples.

Results

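The genes described here are 8 keratins of simple (luminal) epithelium and hair: KRT7, KRT8, KRT18, KRT19, KRT23, KRT80, KRT81 and KRT86. They were taken by symbol from a table of 23459 genes, and all 8 were present in it. The table holds 3′ mRNA-Seq counts from MCF10A, an untransformed mammary epithelial cell line of human origin which the descriptions of these libraries call WT. The cells received 20 nM of siRNA, which was non-targeting in the 3 siCtrl libraries and directed at both YAP and TAZ in the 3 siYAP/TAZ libraries. The study asked how the Hippo pathway coactivators YAP and TAZ, which work through TEAD transcription factors, share target genes with the AP-1 factor JUN.

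Keratins form the intermediate filaments of epithelial cells, and each filament is built from pairs of a type I and a type II keratin. In the mammary gland KRT7, KRT8, KRT18 and KRT19 mark the luminal cells that line the ducts, whereas KRT5, KRT14 and KRT17 mark the basal layer. KRT81 and KRT86 are type II keratins of the hair cortex, and KRT81 is also known from breast cancer cell lines.

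The counts of KRT81 and KRT86 cannot be separated, so the arrangement of these genes on chromosome 12 is given before their values. Whether that arrangement is the reason for the shared counts was not tested. In GENCODE 44 on GRCh37, KRT81 (Entrez 3887, minus strand, chr12:52679697-52685318) lies wholly inside the annotated span of KRT86 (Entrez 3892, plus strand, chr12:52643084-52702947). The annotated exons of KRT81 cover 1929 bases and those of KRT86 cover 2424 bases, and 0 bases are exonic in both. Their coding sequences are close to each other: over the first 8 of 9 coding exons, which have equal lengths in both genes, 1243 of 1279 bases (97.2%) are identical. Of the 1466 windows of 50 bases in the coding sequence of KRT81, 721 (49.2%) were also present in the KRT86 transcript. In the last 500 bases of the KRT81 transcript, the end that a 3′ library reads, 0 of 451 windows were.

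Library totals ranged from 3175149 to 4317286 counts. For 2 libraries GEO's labels disagree: the title and genotype of siCtrl replicate 2 name siYAP/TAZ, and those of siYAP/TAZ replicate 2 name the control. Groups follow the description, whose text also heads the columns of the table. Under it YAP1 fell from 201 ± 11.1 to 115 ± 3.25 CPM (SD, n = 3; CPM are TMM-scaled counts relative to library size; edgeR adjusted p = 0.0138), and WWTR1, which encodes TAZ, fell from 106 ± 4.02 to 65.8 ± 5.44 CPM (SD, n = 3; edgeR adjusted p = 0.0311). On the first principal component, which held 48.4% of the variance, siCtrl replicate 2 lay at 7.15, next to siYAP/TAZ replicate 1 at 9.77, while the other siCtrl libraries lay at −42.6 and −34.9. The study's methods state biological replicates for its RNA-sequencing in general, but the labels of these 3′ libraries do not say whether they came from separate cultures, so the p-values measure only the spread between these libraries, which may be technical.

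Of the 8 keratins, 5 had enough counts to be tested, and 1 of them, KRT7, was lower in siYAP/TAZ at an adjusted p under 0.05 (edgeR's quasi-likelihood test, Benjamini-Hochberg adjustment over 12510 genes). None was higher. Among all genes tested 1.22% were lower and 0.743% were higher by the same rule. DESeq2 also had 1 of them lower and 0 higher, against 2.47% and 1.88% of all genes. In 3 of the 5 (KRT7, KRT81 and KRT86) the siYAP/TAZ libraries all lay below the siCtrl libraries and in 0 they all lay above, which held for 11.1% and 11.0% of all genes tested. KRT81 and KRT86 had larger differences that missed the threshold in this fit and passed it once the replicate number was a term. That same-numbered libraries form pairs was inferred from these data and is not stated by the labels. With the replicate term 3 of the 5 were lower, against 5.44% of all genes. KRT8 and KRT18 showed differences within the spread of the libraries. The median log2 fold change of the 5 tested keratins was −0.97, beside −0.00093 for all genes. KRT81 and KRT86 count as 2 of these 5 although they share nearly all their reads.

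**Figure D1:**
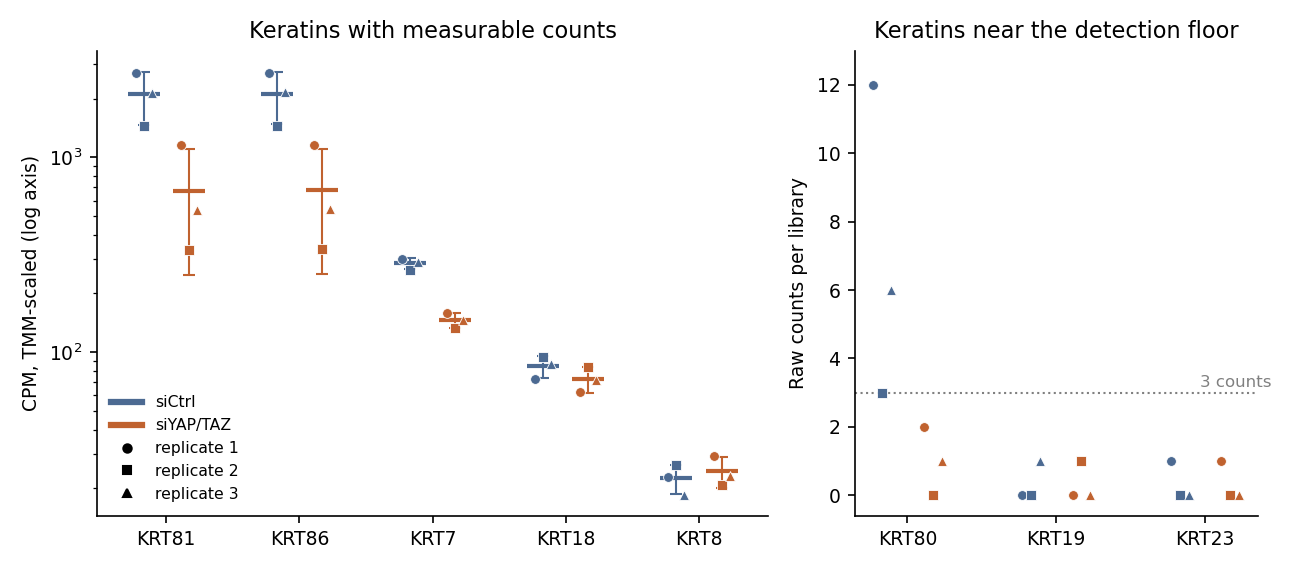
The left panel plots CPM (log axis) of the 5 tested keratins in each library, with bars for the mean and SD of 3 libraries, and the right panel plots raw counts of the 3 keratins near the detection floor of 3 counts. KRT81, KRT86 and KRT7 sat lower in every siYAP/TAZ library than in any siCtrl library, whereas the groups overlapped for KRT18 and KRT8.

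KRT7 (Entrez 3855, chr12:52626304-52645970, plus strand) encodes the type II keratin typical of ductal and glandular epithelium. Replicates 1, 2 and 3 gave 1051, 859 and 1161 counts under siCtrl and 702, 404 and 540 under siYAP/TAZ, which are 302, 265 and 292 CPM against 159, 134 and 147 CPM. All siYAP/TAZ libraries lay well below all siCtrl libraries, and the libraries of each group lay close together. The means were 286 ± 19.0 and 147 ± 12.8 CPM (SD, n = 3), so 51.2% remained. The log2 fold change was −0.97 (SE 0.13, 95% interval −1.26 to −0.67, adjusted p = 0.0107 by edgeR), which ranked KRT7 33rd of 12510 genes by p. Within the replicate pairs 52.7%, 50.4% and 50.3% of the control level remained, so the difference was nearly the same size in each pair. In bulk RNA, fewer cells that carry a transcript and less of it per cell cannot be told apart.

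The KRT7 difference kept its direction when any library was left out, with log2 fold changes from −1.03 to −0.90. The edgeR adjusted p rose to 0.0728 without siCtrl replicate 3, and leaving out siYAP/TAZ replicate 2 or 3 raised it to 0.0505 or 0.0852. With the groups as the titles give them the log2 fold change was −0.35 and the edgeR adjusted p was 0.898. KRT7 is in the study's supplementary set of siYAP/TAZ target genes. The sources used here do not tie that set to libraries other than these, so its presence there is not counted as independent evidence of its direction.

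KRT81 had the highest level of the 8 keratins apart from KRT86, whose row repeats it, and ranked 20 of 12510 tested genes by mean siCtrl CPM. Its counts were 9427, 4696 and 8551 under siCtrl and 5092, 1013 and 1973 under siYAP/TAZ, or 2707, 1449 and 2149 CPM against 1154, 335 and 537 CPM. The groups did not overlap, but siYAP/TAZ replicate 1 lay not far below siCtrl replicate 2, and the libraries of each group were far apart. The means were 2102 ± 630.5 and 675 ± 427 CPM (SD, n = 3), so 32.1% remained. The log2 fold change was −1.64 (SE 0.41, 95% interval −2.56 to −0.71) with an adjusted p of 0.0792 by edgeR. Counted from the lowest fold change, KRT81 ranked 35 of 12510 genes.

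The spread of KRT81 was shared between libraries of the same number: replicate 1 was the highest and replicate 2 the lowest of each group. Within the pairs 42.6%, 23.1% and 25.0% of the control level remained. With the replicate block the log2 fold change was −1.78 (SE 0.16) and the edgeR adjusted p was 0.000217. Without siCtrl replicate 2, the library that lay apart from its group on the first principal component, the log2 fold change was −1.84 with an adjusted p of 0.0126, and without both libraries whose labels disagree it was −1.52 with an adjusted p of 0.0117. Without siYAP/TAZ replicate 1 it was −2.27 with an adjusted p of 0.0187. With any other single library left out KRT81 did not pass: the log2 fold change was −1.41 and −1.62 without siCtrl replicates 1 and 3 (edgeR adjusted p of 0.206 and 0.262), and −1.31 and −1.49 when siYAP/TAZ replicate 2 or 3 was dropped (0.177 and 0.308). Robust dispersion estimation gave an edgeR adjusted p of 0.139 and DESeq2 gave 0.0853. In the 3 edgeR fits that passed by leaving out libraries, 6.22%, 4.64% and 0.866% of all genes tested were lower. With no low-count filter the adjusted p of KRT81 was 0.00887, in a fit that had 1.56% of genes lower. With the groups by title the log2 fold change was −0.73 and the edgeR adjusted p was 0.898.

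The KRT86 counts were 9466, 4715 and 8583 under siCtrl and 5112, 1026 and 1987 under siYAP/TAZ. These exceeded the KRT81 counts by 39, 19 and 32 under siCtrl and by 20, 13 and 14 under siYAP/TAZ. KRT81 thus equaled 98.7% to 99.6% of the KRT86 count in every library, and the fitted values of KRT86 (log2 fold change −1.63, SE 0.41, edgeR adjusted p = 0.0785) repeat those of KRT81. Counts beyond those of KRT81, the part that could be particular to KRT86, came to 11.2, 5.86 and 8.04 CPM against 4.53, 4.30 and 3.81 CPM. The siYAP/TAZ CPM values were the lower ones without overlap, which held for 11.1% of all genes tested. In raw counts siCtrl replicate 2 held 19 and siYAP/TAZ replicate 1 held 20, so the separation rests on few counts. The log2 fold change of this remainder was −0.98 (SE 0.33, edgeR adjusted p = 0.164). The 3′ end of KRT7 also lies inside the KRT86 span on the same strand. KRT7 had 404 to 1161 counts in a library, where the remainder had 13 to 39. Whether the remainder holds KRT7 reads was not tested. Where the shared reads lay and whether strand was used in counting are not given in the sources used here. The reads of the pair thus cannot be told apart, and the KRT86 row is no separate measure of KRT86. KRT81 lies wholly inside the KRT86 span, and 0 of 451 windows in its last 500 bases occurred in the KRT86 transcript. Which gene the shared reads came from was not tested. The log2 ratio of KRT81 to KRT86 differed by −0.0057 between the groups (exact permutation test, two-sided, p = 0.3, adjusted p = 0.375 over 5 ratios). Because the KRT86 row repeats the KRT81 counts, this ratio cannot show whether the genes responded differently.

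KRT18 (Entrez 3875, chr12:53342655-53346690, plus strand) and KRT8 (Entrez 3856, chr12:53290971-53343738, minus strand) encode the type I and type II partners that are the first keratins of the embryo and the main pair of simple epithelium. The KRT18 level was 72.7, 94.7 and 86.7 CPM under siCtrl and 62.6, 84.3 and 72.1 CPM under siYAP/TAZ. The groups overlapped, although each siYAP/TAZ library was below the siCtrl library of its number. The means were 84.7 ± 11.2 and 73.0 ± 10.9 CPM (SD, n = 3), with a log2 fold change of −0.22 (95% interval −0.58 to 0.14, edgeR adjusted p = 0.524, or 0.286 with the replicate block). The KRT8 level was 23.0, 26.2 and 18.6 CPM under siCtrl and 29.5, 20.8 and 23.1 CPM under siYAP/TAZ. Its groups overlapped and 1 of the 3 pairs went down. The means were 22.6 ± 3.83 and 24.5 ± 4.48 CPM (SD, n = 3), with a log2 fold change of 0.13 (95% interval −0.35 to 0.60, edgeR adjusted p = 0.806), and the sign turned without siCtrl replicate 3 (−0.0016) or siYAP/TAZ replicate 1 (−0.035).

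The spans of KRT8 and KRT18 overlap on opposite strands only at their 5′ ends, where KRT18 starts at 53342655 and KRT8 reaches to 53343738. A 3′ library reads the other ends, so the overlap is unlike that of KRT81, which lies wholly inside the KRT86 span. The row of KRT18P55, a pseudogene related to KRT18, held 1 to 5 counts in a library. The log2 ratio of KRT8 to KRT18 within a library was 0.33 higher in siYAP/TAZ (exact permutation test, two-sided, p = 0.4, adjusted p = 0.4). KRT7 could be set against both partners in the same manner, with ratios chosen after the values were seen. The log2 ratio of KRT7 to KRT8 was 3.67 ± 0.32 in siCtrl and 2.59 ± 0.14 in siYAP/TAZ, and that of KRT7 to KRT18 was 1.76 ± 0.28 and 1.01 ± 0.34 (SD, n = 3; exact permutation p = 0.1 for each, adjusted p = 0.25). A p of 0.1 is the smallest that 3 libraries against 3 can give. The log2 ratio of KRT81 to KRT7 was 0.81 lower in siYAP/TAZ (exact permutation p = 0.2, adjusted p = 0.333).

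KRT80, KRT19 and KRT23 were too low to be tested. KRT80 (Entrez 144501, chr12:52562780-52585798, minus strand), a type II keratin found near desmosomes, gave 12, 3 and 6 counts under siCtrl and 2, 0 and 1 under siYAP/TAZ. Every siYAP/TAZ library was below every siCtrl library, but the nearest were 3 counts in siCtrl replicate 2 and 2 in siYAP/TAZ replicate 1. These lie at or below the floor of 3 counts, and the 11.1% share of non-overlapping genes covers tested genes only. LINC00592, which overlaps KRT80 on the opposite strand, had 0 to 2 counts. Summed over libraries these were 21 counts against 3, a ratio of 0.136 per library size with an exact 95% counting interval of 0.0260 to 0.456. The interval pools the libraries of each group and describes counting error alone, so it leaves out the spread between libraries. Reads that carry no molecular identifier may also be copies of 1 molecule. With no low-count filter the log2 fold change of KRT80 was −2.73 (SE 0.88, edgeR adjusted p = 0.123).

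KRT19 (Entrez 3880, chr17:39679869-39684560, minus strand), the short type I keratin of ductal luminal cells, had 1 count in siCtrl replicate 3, 1 in siYAP/TAZ replicate 2 and 0 elsewhere. KRT23 (Entrez 25984, chr17:39078952-39093898, minus strand), another type I keratin, had 1 count in replicate 1 of each group and 0 elsewhere. Both stayed under 3 counts in every library, a limit of 0.680 to 0.992 CPM, so no difference was detectable at this depth.

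The keratins that do carry counts formed a large pool in which KRT81 weighed most. Leaving out the KRT86 row, keratin transcripts summed to 5540, 4286 and 5023 CPM under siCtrl and 3250, 2411 and 2570 CPM under siYAP/TAZ. Since each transcript gives about the same number of reads in a 3′ library, CPM values were added without division by length. KRT81 made up 48.9%, 33.8% and 42.8% of this pool under siCtrl and 35.5%, 13.9% and 20.9% under siYAP/TAZ, so the highest siYAP/TAZ share lay above the lowest siCtrl share. KRT7 held 5.45% to 6.18% and 4.90% to 5.71%, ranges that overlapped. KRT8 and KRT18 together held 1.73% to 2.82% and 2.83% to 4.36%, and these ranges touched without overlap. The pool that these shares divide by was itself smaller in siYAP/TAZ. The CPM of KRT8 and of KRT18 each overlapped between the groups.

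**Figure D2:**
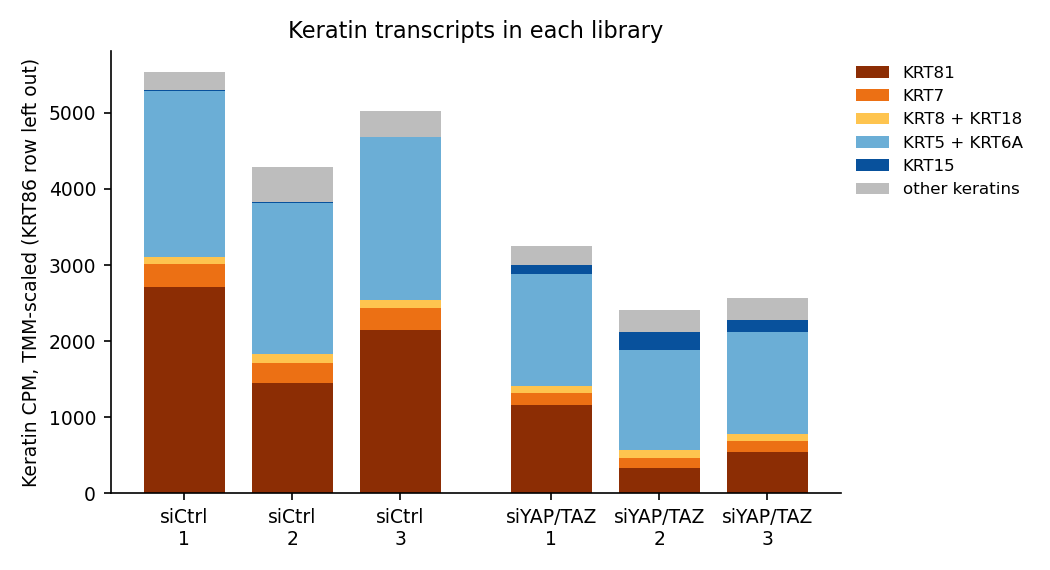
Stacked bars give the CPM of keratin transcripts in each library, with the KRT86 row left out because it repeats KRT81. The pool was 4286 to 5540 CPM in siCtrl and 2411 to 3250 CPM in siYAP/TAZ, and the KRT81 segment was the part that differed most in height.

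The other keratin genes of the table served as the background family. Of 47 other keratin genes 18 had a count, and 8 were tested, with 5 below and 3 above a log2 fold change of 0. Only KRT15, a type I keratin of basal and stem-like cells, passed the test in the fit on group alone, and it rose from 12.4 ± 7.08 to 171 ± 64.7 CPM (SD, n = 3; log2 fold change 3.81, SE 0.41, edgeR adjusted p = 0.00462). Basal KRT5 had 912 ± 74.2 and 661 ± 47.5 CPM and stress-associated KRT6A had 1185 ± 167 and 714 ± 119 CPM (SD, n = 3). Their log2 fold changes were −0.47 and −0.73 with edgeR adjusted p of 0.131 and 0.0715, or 0.0230 and 0.00186 with the replicate block. KRT17 (log2 fold change −0.53, edgeR adjusted p = 0.334) and KRT10 (0.28, edgeR adjusted p = 0.335) did not pass either way. The hair keratins KRT83 and KRT85 were at 0 in all 6 libraries, and of 8 keratin pseudogenes 3 had a count and 0 could be tested.

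**Figure D3:**
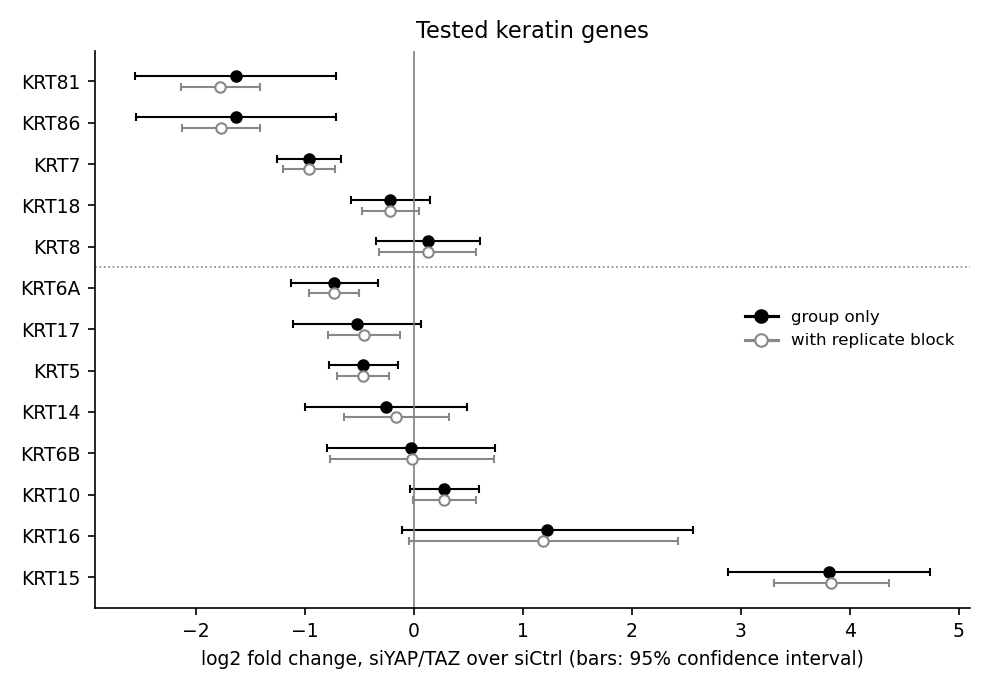
Points give log2 fold changes (siYAP/TAZ over siCtrl) with 95% confidence intervals for the tested keratins, the luminal and hair-type ones above the dotted line, with filled symbols for the fit on group alone and open symbols for the fit with the replicate block. The interval of KRT81 ran from −2.56 to −0.71 without the block and from −2.14 to −1.42 with it, whereas that of KRT7 changed little.

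All 5 tested keratins of luminal and hair type lie in the type II keratin cluster of chromosome 12, where KRT18 is the type I exception at its edge. Of the 8 tested genes in this stretch 7 had a log2 fold change below 0, with a median of −0.60. KRT86 is counted among them although its row repeats that of KRT81 and is no separate measure. KRT7, KRT81 and KRT86 neighbor one another among these genes, and their log2 fold changes of −0.97, −1.64 and −1.63 were the lowest in the stretch. KRT8 and KRT18, whose 3′ ends lie 728 and 784 kb from that of KRT80, had values of 0.13 and −0.22.

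**Figure D4:**
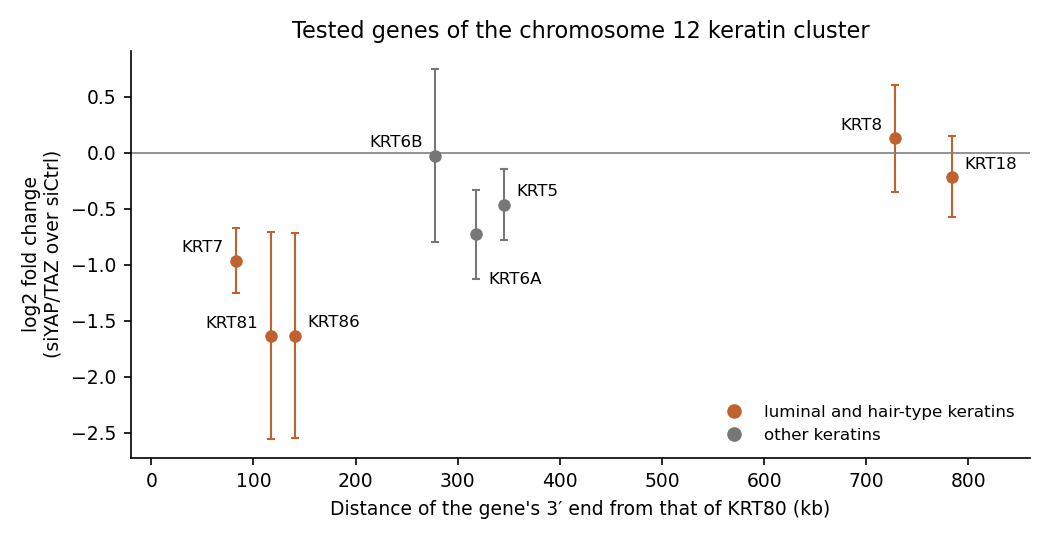
Log2 fold changes of the tested keratins of the chromosome 12 cluster are plotted with 95% confidence intervals against the distance of each 3′ end from that of KRT80 in kb. The neighbors KRT7, KRT81 and KRT86 had values of −0.97 to −1.64, and KRT8 and KRT18 at the far end had values of 0.13 and −0.22. The KRT86 row repeats that of KRT81 and is no separate measure.

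Luminal genes other than keratins were examined with a list of 26, of which 17 were tested, with 13 above and 4 below 0. Only EHF, an epithelial ETS factor, passed the test in the fit on group alone and was higher, at 29.7 ± 12.9 against 96.9 ± 26.4 CPM (SD, n = 3; log2 fold change 1.72, SE 0.33, edgeR adjusted p = 0.0350). With the replicate block 5 were higher and 2 lower, against 4.66% and 5.44% of all genes. The higher ones were EHF, MUC1, ELF3, LTF and SLPI, and the lower ones were EPCAM and TFAP2C. Log2 fold changes with the block were 1.59 for MUC1, 1.49 for ELF3 and 2.95 for LTF, which had as few as 1 count in a library. MUC1, ELF3, LTF and TFAP2C are named after their values were seen. E-cadherin (CDH1) had 119 ± 20.6 and 141 ± 6.81 CPM and the adhesion molecule EPCAM had 128 ± 17.8 and 91.1 ± 28.0 CPM (SD, n = 3). Both pairs of groups overlapped, but with the replicate block EPCAM was lower (log2 fold change −0.53, edgeR adjusted p = 0.0364). The secretory factor XBP1 had 61.2 and 63.8 CPM, and the protease inhibitor SLPI had 44.8 and 62.3 CPM, with SLPI higher under the block (log2 fold change 0.50, edgeR adjusted p = 0.0440). ELF5 and CLDN3 were at 0 in every library. The median log2 fold change of the tested luminal genes was 0.38, beside −0.00093 for all genes. Of the tested luminal keratins, KRT7 was at −0.97, KRT18 at −0.22 and KRT8 at 0.13.

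Of 18 genes for proteins that anchor or accompany keratin filaments, 15 were tested, with 9 above and 6 below 0. None passed edgeR's adjusted threshold, whereas 5 had an unadjusted p under 0.05 and DESeq2 called 1, against 17.7% and 4.35% of all genes. With the replicate block, which called 10.1% of all genes, 5 passed, with DSP, PPL and PKP2 higher and the lamins LMNB1 and LMNB2 lower (PPL and the lamins are named after their values were seen). Plakoglobin (JUP) had 905 and 941 CPM, vimentin (VIM) had 407 and 366 CPM, and the desmosomal plakophilin PKP2 had 68.0 and 108 CPM. Desmoplakin (DSP), which ties keratin to desmosomes, had 655 ± 206 and 951 ± 125 CPM (SD, n = 3; edgeR adjusted p = 0.247, or 0.0272 with the block).

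The labelled cell type was checked against marker lists. All 14 basal mammary markers were tested. With edgeR 0 passed and 3 had an unadjusted p under 0.05, where 17.7% of all genes did. With the block 4 were lower and 1 higher, where 5.44% and 4.66% of all genes were, and DESeq2 called 2, where it called 4.35% of all genes. Their summed level was 3912 to 4845 CPM in siCtrl and 3012 to 3761 CPM in siYAP/TAZ, part of which is KRT5 itself. Leukocyte markers (3 genes) summed to 1.44 to 4.94 and 1.36 to 3.97 CPM, and adipocyte markers (2 genes) to 0.251 to 1.85 and 0.331 to 1.59 CPM. Endothelial markers (3 genes) summed to 2.01 to 3.39 CPM in siCtrl and 4.76 to 11.2 CPM in siYAP/TAZ, with PECAM1 at an edgeR adjusted p of 0.0785, or 0.0245 with the block. Of 4 fibroblast markers COL1A2 and COL3A1 were at 0, and the list summed to 157 to 173 and 157 to 184 CPM. Nearly all of this was PDGFRA, with means of 161 CPM in siCtrl and 167 CPM in siYAP/TAZ. Squamous markers (9 genes, 8 of them in the table) summed to 51.5 to 58.0 and 62.1 to 84.8 CPM, with KRT1 and KRT4 at 0. Most of this was KRT10, with means of 51.7 CPM in siCtrl and 62.7 CPM in siYAP/TAZ. The part of the endothelial and squamous markers in the keratin differences was not tested.

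The genes whose log2 CPM followed KRT7 most closely over the 6 libraries, among 8908 screened, were ANXA3 (Pearson r 0.998), DNAJC14 (0.997) and CCBE1 (0.995). For KRT8, whose values did not separate the groups, they were RGPD5 (0.997), PRKAG2 (0.973) and APH1A (0.972). These correlations are descriptions over 6 libraries that share their group structure.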

How the data were processed

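The authors deposited raw, unnormalized counts (1 table, Entrez gene IDs) for 6 libraries made with the Lexogen QuantSeq 3′ FWD kit. The submitters' processing notes name cutadapt 4.2, Bowtie2 2.3.5.1 and hg19, and the study's methods state counting of gene overlaps in R for RNA-Seq in general. The annotation and strand setting for these libraries are not given in the sources used here. The table had 23459 genes and 0 unnamed rows. Symbols came from the RefSeq table of GRCh38.p14, used for names only, which matched 23308 IDs, and coordinates and coding sequence came from GENCODE 44 on GRCh37, the same coordinates as hg19.

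Counts were tested with the quasi-likelihood test of edgeR 4.0.16 (R 4.3.3) after its default filter on low counts and TMM scaling, with a design of group alone; p-values were adjusted by Benjamini-Hochberg over 12510 genes and the threshold was 0.05. The script was tested on simulated counts. CPM values are TMM-scaled and errors are SD over 3 libraries. Ratios of 2 genes used counts plus 0.5 and an exact permutation test (scipy 1.17.1). Levels below 3 counts were treated as the detection floor.

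Replicate numbers come from the description field. Deviations from the group means correlated between same-numbered libraries with r of 0.42, 0.35 and 0.13, each over 0.1, so same-numbered libraries were treated as pairs. Libraries of unlike number were not compared in this way, and the labels do not state pairing.

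The comparison was repeated with the replicate block, with DESeq2 1.42.0, with robust dispersion, with RLE or library-size scaling, without the low-count filter or with one at 50 mean counts, with the groups by title, with both libraries of disagreeing labels or each library in turn left out, and with KRT81 and KRT86 summed. The counts of KRT86 beyond KRT81 and the ratios of KRT7 to KRT8, KRT7 to KRT18 and KRT81 to KRT7 were chosen after seeing the data. The 8 keratins and the gene lists were chosen with earlier results of these data known. Beyond the 8 keratins, named genes were those past the threshold and the 4 of highest mean CPM in each list. Genes marked as named after their values were seen are exceptions. For likeness the named genes were the 3 of highest correlation among genes with a mean of at least 50 counts.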

Additional observations from a re-analysis of the deposited data

How the results depend on the processing

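KRT7 stayed lower under every alternative run, with log2 fold changes from −1.03 to −0.35, and KRT81 and KRT86 did too. KRT8 ranged from −0.035 to 0.25 with single libraries left out and turned below 0 without siCtrl replicate 3 (−0.0016) or siYAP/TAZ replicate 1 (−0.035), and the log2 ratio of KRT81 to KRT86 turned to 0.0027 with the groups by title. No keratin of the 8 was higher past the threshold under any alternative. The ratio of KRT7 to KRT19 was not run because KRT19 was at the floor.

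The number of genes past the threshold was 245. It was 578 by DESeq2, 556 with no low-count filter, 1263 with the replicate block, 0 by title (464 at an unadjusted p under 0.05) and 1183 without both libraries whose labels disagree, and ranged from 16 to 1579 with single libraries left out (leaving out siCtrl replicate 1, 2 or 3 gave 92, 1579 or 16, and leaving out siYAP/TAZ replicate 2 or 3 gave 71 or 18). The count of luminal and hair-type keratins lower was 1. It was 3 with no low-count filter, with the replicate block and without both disputed libraries, 0 by title, and 0 to 3 with single libraries left out. KRT81 and KRT86, which share nearly all their reads, both count towards the 3. The count of other keratins was 1. It was 3 by DESeq2, with the block and without both disputed libraries, 2 with no filter, 0 by title, and 1 to 3 with single libraries left out. The luminal list count was 1. It was 3 by DESeq2 and with no filter, 7 with the block, 6 without both disputed libraries, 0 by title, and 0 without any single library except siCtrl replicate 2, where it was 5. The linker list count was 0. It was 1 by DESeq2 and with no filter, 5 with the block and without both disputed libraries, and 0 to 6 with single libraries left out. The cause of these changes was not tested. The replicate block changed no other call among the 8 keratins. Depth limits KRT80, KRT19 and KRT23, whose counts did not exceed 12 in a library.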
